A study of Caenorhabditis elegans with 12 samples.

Results

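Whole-animal RNA of 2 long-lived strains of the nematode Caenorhabditis elegans was compared directly, with no wild type between them. Of the 12 arrays in the series, 6 enter this comparison, the 3 titled tax-6 null and the 3 titled aak-2 o/e. The tax-6 null strain is RB1667, which carries the deletion allele tax-6(ok2065). The aak-2 o/e strain is AGD383, an N2 background with the integrated transgene uthIs202. That transgene joins the aak-2c promoter, the part of AAK-2 from amino acid 1 to 321, the red fluorescent protein Tomato and the unc-54 3′UTR, with rol-6 as the co-injection marker. The remaining 6 arrays, of crh-1 null (allele nn3315) and of WT (N2), are used for the shared error estimate and as a scale for the levels. Each pool held 3000 animals that had hatched without food and were collected from OP50 bacteria as L4 larvae, and harvest times were set to allow for strains that develop at different speeds. The 3 pools of a strain were grown on separate days, and all RNA was extracted together 12 hours before the arrays. Each genotype is 1 strain, so the allele or transgene cannot be told apart from anything else that strain carries. The source field of the aak-2 o/e samples reads "aak-2 null", against their title and genotype, and the title is used here.

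TAX-6 is the catalytic subunit of calcineurin, the phosphatase that calcium and calmodulin switch on, and worms without it are long-lived. AAK-2 is a catalytic subunit of AMP-activated protein kinase (AMPK), which senses low energy, and worms with an active AAK-2 fragment are also long-lived. Both enzymes act on CRTC-1, the coactivator of the transcription factor CREB, which the crh-1 gene encodes. Calcineurin removes phosphates from CRTC-1 and AMPK adds them, so losing the first and gaining the second are known to push CRTC-1 the same way, out of the nucleus. The series addresses the part of these 2 enzymes, CRTC-1 and CREB in life span, and the direct contrast asks where the transcriptomes of the 2 long-lived strains part.

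Probe sets whose log2 value reached 4 on at least 3 of the 12 arrays were tested. That left 13396 probe sets, and 10365 genes once each gene was represented by its brightest probe set. At the border of this filter, 193 probe sets reached 4 on exactly 2 arrays and were left out, and 273 reached it on exactly 3 arrays and were kept. Values below 4 lie near the array's floor of 2.11 and carry little information, so a fold against a strain with all 3 arrays below 4 is given as a lower bound. At least 57.1% of probe sets reached 4 on each of the 12 arrays. The 3 aak-2 o/e arrays correlated with each other at 0.996 to 0.997 over all probe sets. Within tax-6 null, replicates 2 and 3 correlated at 0.997 and replicate 1 with them at 0.990 and 0.992, so replicate 1 stood apart, and results that turn on it are given without it as well. Differences are tax-6 null minus aak-2 o/e on the log2 scale, followed by their standard error, from 3 arrays per strain, and p-values are limma's, adjusted over all probe sets. Members named below to account for a small count, and the neighbours of bcf-1 and plk-3, were chosen after their values were seen.

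The genes altered in the 2 strains gave no check of the labels. The tax-6 probe set did not pass the filter, with 3.43, 3.32 and 2.98 in tax-6 null against 3.45, 3.65 and 3.91 in aak-2 o/e. Fitted with no filter, it differed by -0.43 ± 0.17 (adjusted p = 0.105). The brighter aak-2 probe set read 9.30, 9.19 and 9.37 in tax-6 null, against 8.89, 8.43 and 8.46 in aak-2 o/e, a difference of 0.69 ± 0.19 (adjusted p = 0.01). Thus the strain titled as overexpressing aak-2 was the lower one on that probe set, while the other aak-2 probe set differed by 0.24 ± 0.12 (adjusted p = 0.135). The sources used here do not give the part of each transcript that these probe sets read, and a probe outside the deletion or outside the transgene's fragment checks nothing. rol-6, a cuticle collagen and the marker of the transgene, differed by 0.05 ± 0.13 (adjusted p = 0.766), and unc-54, the body wall myosin whose 3′UTR ends the transgene, by -0.15 ± 0.11 (adjusted p = 0.308).

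The 2 strains differed in a large share of the measured genes. Of 10365 genes, 5188 (50.1%) passed the test, 2865 (27.6%) higher and 2323 (22.4%) lower in tax-6 null than in aak-2 o/e. Differences of at least 2-fold were called in 1218 genes (11.8%) that were higher and 1261 genes (12.2%) that were lower. At least 4-fold differences ran the other way in number, with 394 genes higher and 658 lower, and at least 16-fold ones turned again, with 56 higher and 21 lower. The 3 arrays of one strain all lay above the 3 of the other in 5773 genes (55.7%). The median difference over all genes was 0.05 and the median absolute difference 0.41, against a median standard error of 0.157. Centring each array on its median moved the split to 2543 higher and 2585 lower, so which direction had more calls depended on the scaling. In their own comparisons with WT, which share the 3 WT arrays, 45% of genes were called in tax-6 null, against 33.5% in aak-2 o/e.

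**Figure D1:**
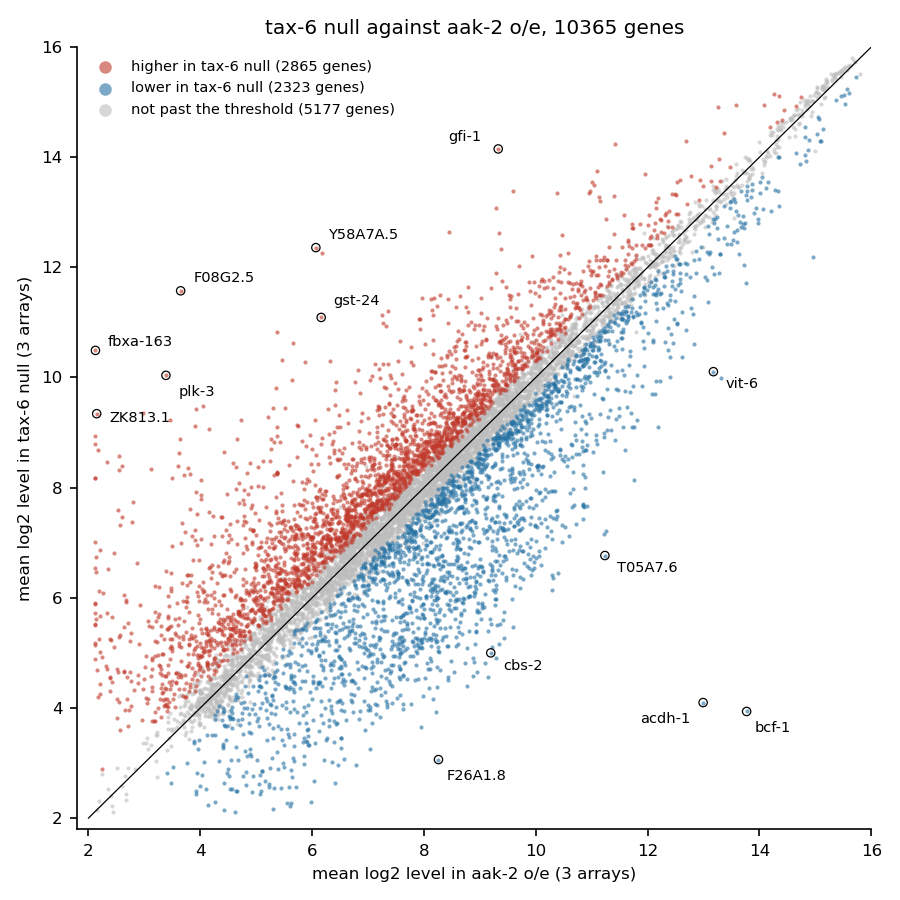
Mean log2 value of each of the 10365 genes in tax-6 null (vertical axis) against aak-2 o/e (horizontal axis), 3 arrays per strain, with called genes coloured and a set of named genes marked. The farthest genes below the diagonal are bcf-1 and acdh-1, and the farthest above it are fbxa-163, F08G2.5 and ZK813.1.

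Among the genes that were higher in tax-6 null, most of the leading ones lay near the array floor in the other 3 strains. fbxa-163, an F-box gene of the family that feeds substrates to ubiquitin ligases, read 10.26, 10.77 and 10.44 in tax-6 null, against 2.11, 2.14 and 2.11 in aak-2 o/e. The groups are far apart and all 3 aak-2 o/e arrays sit at the floor, so the 8.37 ± 0.12 difference stands for at least 90-fold (adjusted p = 8.94e-13). Its means of 2.15 in crh-1 null and 2.11 in WT were at the floor too. F08G2.5 showed the same layout, with 11.16, 11.97 and 11.59 in tax-6 null, against 3.68, 3.64 and 3.63 in aak-2 o/e, at least 190-fold higher. Its means were 2.94 in crh-1 null and 4.30 in WT, and 2 WT arrays lay above 4. ZK813.1 and ZK813.7, whose names come from the same clone, were both among the 4 leading genes of their kind. ZK813.1 read 9.50, 9.22 and 9.31 in tax-6 null, against 2.21, 2.11 and 2.11 in aak-2 o/e, and ZK813.7 read 8.71, 8.43 and 8.91 in tax-6 null, against 2.17, 2.17 and 2.17 in aak-2 o/e. Neither reached 4 in crh-1 null or WT, with means of 2.11 in crh-1 null and 2.11 in WT for ZK813.1. Y58A7A.5 was higher by 6.29 ± 0.63 (adjusted p = 4.56e-06), and its aak-2 o/e arrays were spread widely, at 8.14, 5.10 and 4.96.

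A group of secreted hedgehog-related proteins of the ground-like family belonged to the same set. grl-25 read 8.62, 9.96 and 8.22 in tax-6 null, against 2.11, 2.11 and 2.11 in aak-2 o/e, at least 30.6-fold higher. grl-20 was at least 27.8-fold higher and grl-23 at least 22.1-fold, and for all 3 genes replicate 2 was the highest tax-6 null array. Like fbxa-163, none of them left the floor in crh-1 null or WT. The cuticle collagen col-158 averaged 9.35 in tax-6 null, against 2.98 in aak-2 o/e, at least 40.9-fold higher. clc-32 was at least 18-fold higher, stha-3 at least 21.1-fold and dct-17, named for a tumour screen of DAF-16 targets, at least 13.3-fold. spig-20, mtre-1 and fbxc-58 were higher by 5.46 ± 0.37, 5.22 ± 0.36 and 4.95 ± 0.33, with the 3 arrays of each strain apart. spig-20 was the only one of these 12 leading genes with a class name, fbxa-163 included, that also differed from WT upward in aak-2 o/e, by 7.10 in tax-6 null, against 1.64 in aak-2 o/e.

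plk-3, a polo-like kinase gene, was the exception to that layout. It read 9.58, 10.33 and 10.20 in tax-6 null, against 3.67, 3.26 and 3.22 in aak-2 o/e, so at least 65.7-fold higher in tax-6 null (difference 6.65 ± 0.19, adjusted p = 3.46e-10). Here the strain that stood alone was aak-2 o/e, since the means were 9.76 in crh-1 null and 10.13 in WT. The 2 genes next to it in one direction on chromosome IV followed it. F55G1.6 read 8.95, 8.70 and 8.85 in tax-6 null, against 5.41, 5.17 and 5.38 in aak-2 o/e, with means of 8.54 in crh-1 null and 8.75 in WT. slc-25A18.2, a mitochondrial carrier gene next in order, was higher by 2.57 ± 0.25 with means of 6.57 in crh-1 null and 6.70 in WT. Of the 8 nearest genes, 5 passed the test, where 50.1% of all genes did. The other 3 of those 5 were pycr-4 at 0.91 ± 0.14, F13B6.3 at 0.96 ± 0.16 and rod-1, which went the other way, at -0.71 ± 0.17. fbxa-193, another F-box gene, had the same order of strains, 5.87, 6.12 and 6.16 in tax-6 null, against 2.65, 2.63 and 2.63 in aak-2 o/e and means of 6.21 in crh-1 null and 6.20 in WT.

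Among the genes that were lower in tax-6 null, bcf-1, named as a bacterial colonization factor, and acdh-1, a short-chain acyl-CoA dehydrogenase that starts the propionate breakdown shunt, led by a wide margin. bcf-1 read 5.09, 3.37 and 3.35 in tax-6 null, against 13.89, 13.77 and 13.65 in aak-2 o/e, a difference of -9.83 ± 0.35 or 913-fold (adjusted p = 1.76e-09). Only replicate 1 of tax-6 null lay above 4, so the fold compares a level mostly at the floor. The means were 13.93 in crh-1 null and 13.99 in WT, both close to aak-2 o/e. acdh-1 read 4.01, 3.98 and 4.30 in tax-6 null, against 12.43, 13.33 and 13.21 in aak-2 o/e, 476-fold lower (difference -8.89 ± 0.20, adjusted p = 7.6e-11). Its means of 11.90 in crh-1 null and 12.70 in WT again put tax-6 null alone. The gene next to bcf-1 on chromosome V moved the opposite way, since gfi-1 read 13.88, 14.41 and 14.16 in tax-6 null, against 9.61, 9.19 and 9.18 in aak-2 o/e (difference 4.82 ± 0.16), with means of 9.54 in crh-1 null and 9.92 in WT. Both were measured by probe sets of the _s type, which can bind transcripts of related genes. F57F4.1, the next gene after gfi-1, was lower at -2.38 ± 0.19, and cht-6, a chitinase gene on the other side of bcf-1, at -0.54 ± 0.15.

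Most of the other leading lower genes described here fell into 2 layouts. In the first, tax-6 null was the low strain against the 3 others. haf-6, an ABC transporter gene, read 3.78, 5.39 and 4.77 in tax-6 null, against 9.06, 8.79 and 9.01 in aak-2 o/e, with means of 8.90 in crh-1 null and 9.07 in WT. The lipase-like gene lips-14 was at least 5.3-fold lower, with means of 6.85 in crh-1 null and 6.47 in WT. acox-1.2, a peroxisomal acyl-CoA oxidase, read 5.21, 4.69 and 4.55 in tax-6 null, against 8.75, 9.27 and 9.27 in aak-2 o/e, with means of 7.74 in crh-1 null and 9.98 in WT. pud-3 and pud-4, a pair of genes named for proteins abundant in daf-2 mutants, were lower at -3.94 ± 0.29 and -4.38 ± 0.23, but there crh-1 null was low as well. For pud-4 the means were 5.50 in crh-1 null and 9.52 in WT. In the second layout aak-2 o/e was the high strain. cbs-2, a cystathionine beta-synthase of the sulfur amino acid pathway, read 5.03, 4.81 and 5.16 in tax-6 null, against 9.36, 9.04 and 9.18 in aak-2 o/e, with means of 6.19 in crh-1 null and 6.40 in WT. ttbk-5, a tau-tubulin kinase family gene, differed by -4.11 ± 0.21, F59A6.2 by -4.59 ± 0.22 and T05A7.6 by -4.47 ± 0.30, each with WT between the strains and nearer to tax-6 null. F26A1.8 fell outside both layouts. It was at least 19.2-fold lower, reading 3.10, 3.10 and 2.98 in tax-6 null, against a mean of 8.26 in aak-2 o/e. Its highest mean was that of crh-1 null, 11.69, against 3.10 in WT.

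**Figure D2:**
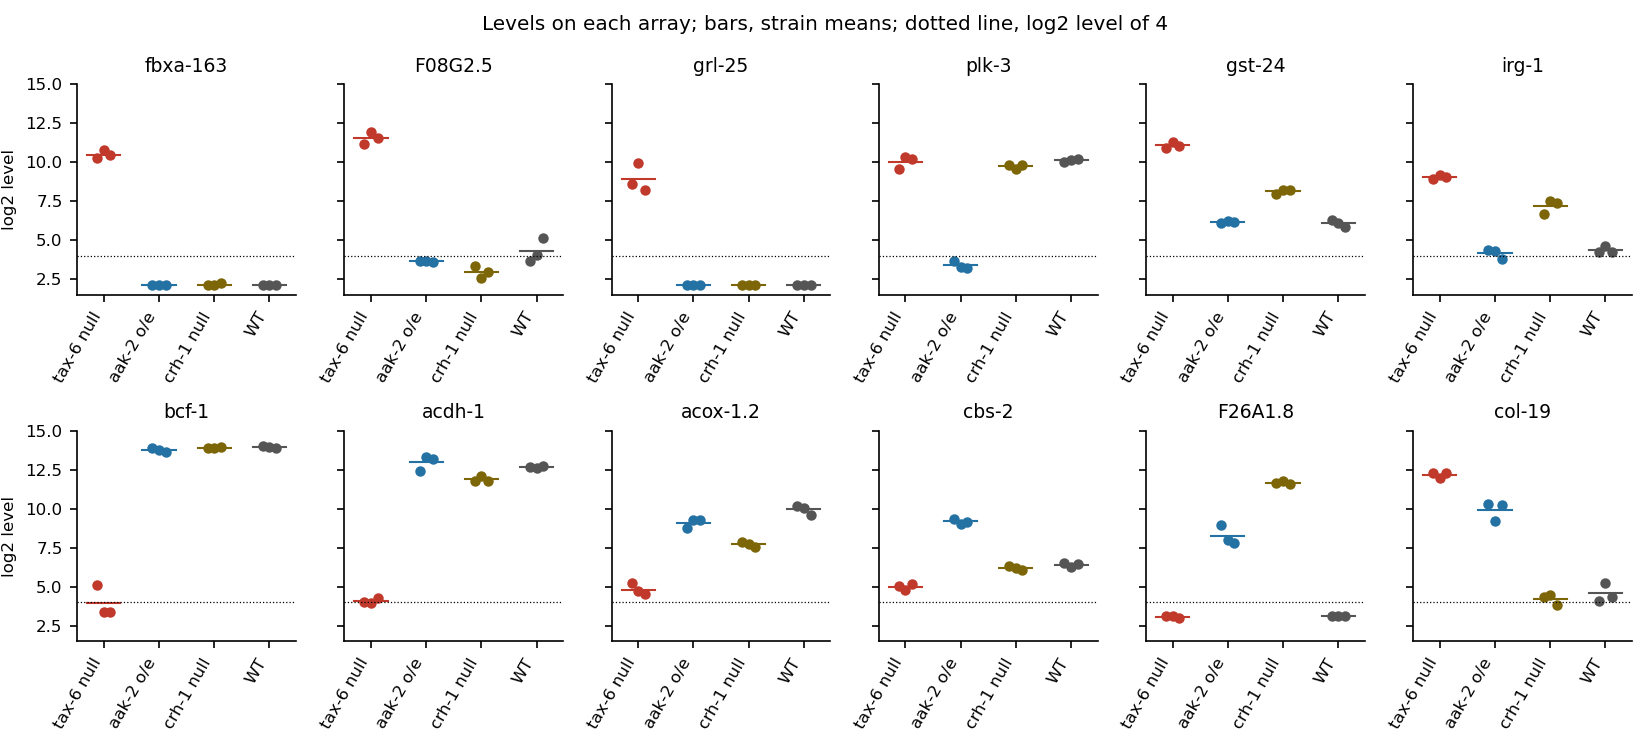
Log2 values on each array of 12 genes in tax-6 null, aak-2 o/e, crh-1 null and WT, with dots for arrays, bars for strain means and a dotted line at the filter level of 4. fbxa-163 and grl-25 leave the floor in tax-6 null alone, plk-3 is at the floor in aak-2 o/e alone, and bcf-1 and acdh-1 drop in tax-6 null alone.

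Some genes lay on opposite sides of WT in the 2 strains. They were picked by all 3 contrasts at once, and both comparisons with WT use the same WT arrays, so the differences from WT are a description. C15A11.7 differed from WT by 2.27 in tax-6 null, against -2.23 in aak-2 o/e, and T20D4.12 by 2.35 in tax-6 null, against -1.57 in aak-2 o/e. In direct comparison C15A11.7 read 9.48, 9.12 and 9.07 in tax-6 null, against 4.66, 5.29 and 4.21 in aak-2 o/e. For ugt-13, a UDP-glucuronosyltransferase of drug conjugation, the differences from WT were 2.21 in tax-6 null, against -1.41 in aak-2 o/e. For adh-1, an alcohol dehydrogenase, they were 1.72 in tax-6 null, against -1.56 in aak-2 o/e, and for lipl-1, a lysosomal lipase, 1.39 in tax-6 null, against -1.64 in aak-2 o/e. C10C5.5, T19C4.5 and K09C4.5 complete the 8, with direct differences of 3.36 ± 0.21, 3.10 ± 0.19 and 2.75 ± 0.15. All 8 were above WT in tax-6 null and below it in aak-2 o/e.

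The reverse order was led by K07F5.6, which read 4.13, 4.36 and 4.73 in tax-6 null, against 8.61, 8.89 and 8.79 in aak-2 o/e and had a WT mean of 6.16. Differences from WT were -2.05 in tax-6 null, against 2.26 in aak-2 o/e for ZK1053.6, and -1.78 in tax-6 null, against 2.50 in aak-2 o/e for F38E1.3. Such genes were below WT in tax-6 null and above it in aak-2 o/e. K01D12.8, C34D4.2, R10D12.10, K09F6.3 and the neurotransmitter-transporter family gene snf-7 had direct differences between -4.07 and -3.76. snf-7 itself read 4.11, 4.05 and 4.51 in tax-6 null, against 7.89, 8.01 and 8.06 in aak-2 o/e, with means of 5.63 in crh-1 null and 5.97 in WT.

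Genes of the pathway that links the 2 enzymes were called no more often than all genes, with 44.4% and 22.2% of its 2 lists called, beside 50.1% of all genes. Of 9 tested genes for calcineurin, calmodulin kinase and CREB, 4 were higher and 0 lower, with a median of 0.12. rcan-1, the calcineurin regulator calcipressin, read 8.94, 9.32 and 9.39 in tax-6 null, against 8.82, 8.45 and 8.33 in aak-2 o/e (difference 0.69 ± 0.15, adjusted p = 0.00195). crh-1 was higher by 0.70 ± 0.15 (adjusted p = 0.00206), cnb-1, the regulatory subunit of calcineurin, by 0.51 ± 0.13 (adjusted p = 0.00556) and the CREB-family gene crh-2 by 0.49 ± 0.16 (adjusted p = 0.0228). None of the 4 differed by 2-fold, and none was called in tax-6 null against WT. The crh-2 call was lost under 7 alternatives, among them leaving out tax-6 null replicate 2, with an adjusted p of 0.0668. No probe set of crtc-1 was tested. Of 18 AMPK and TOR genes, 4 were higher and 0 lower. aakg-4, an AMPK gamma subunit, was the largest at 1.59 ± 0.21 (adjusted p = 5.22e-05), followed by aak-2, the TOR-activating GTPase rheb-1 at 0.53 ± 0.13 and strd-1, a partner of the AMPK kinase LKB1, at 0.34 ± 0.12 (adjusted p = 0.0372). The strd-1 call was lost without replicate 2 of tax-6 null (adjusted p = 0.14). aak-1, the second catalytic subunit, differed by 0.10 ± 0.26 (adjusted p = 0.79). It read 6.39, 7.74 and 7.50 in tax-6 null, against 7.19, 7.20 and 6.95 in aak-2 o/e, and without the low replicate 1 of tax-6 null it passed (adjusted p = 0.00400).

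**Figure D3:**
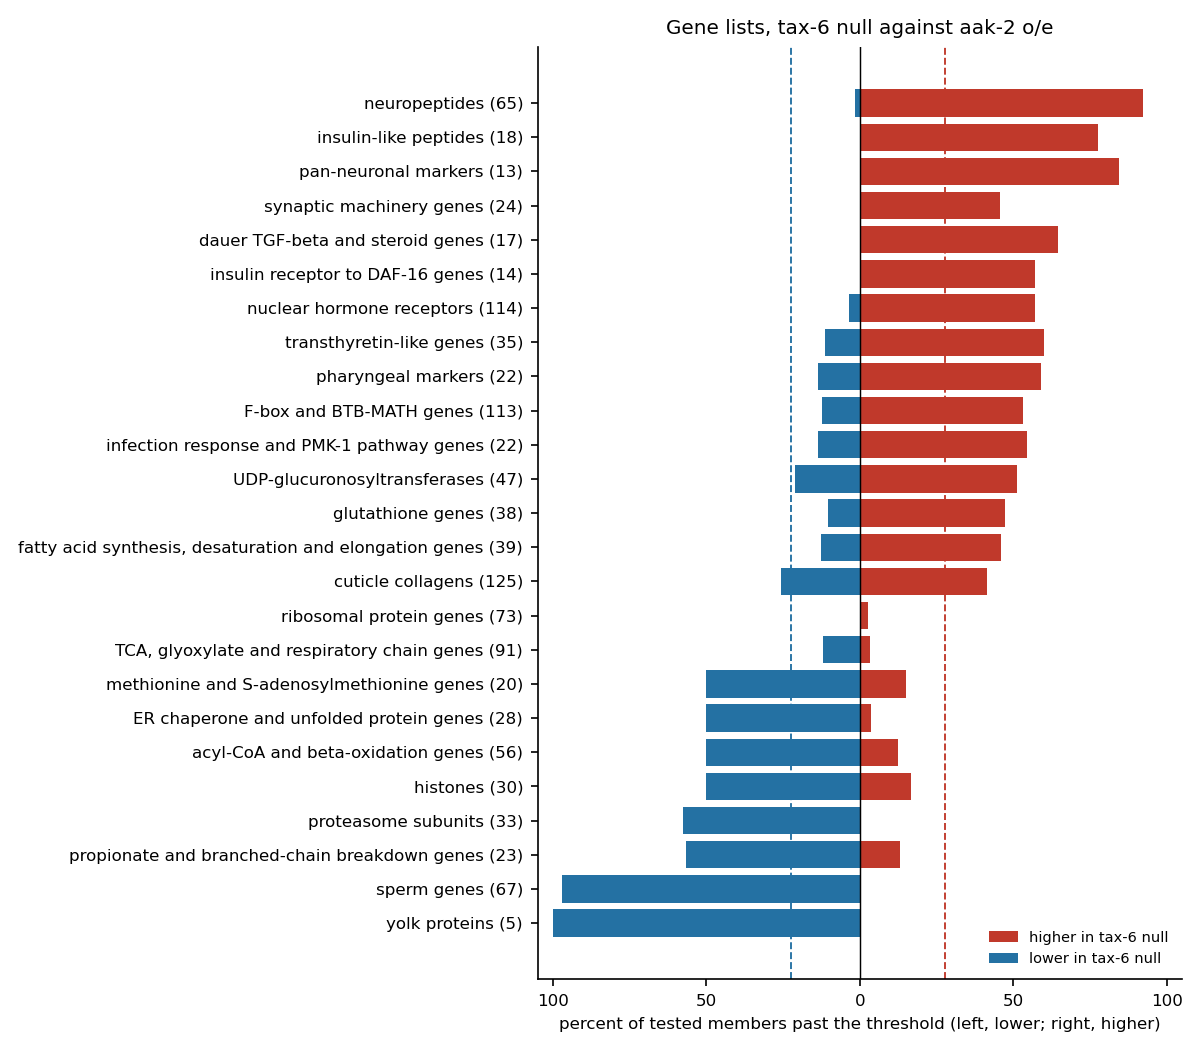
Share of the tested members of 25 gene lists that were called higher (right) or lower (left) in tax-6 null than in aak-2 o/e, in percent, with dashed lines at the shares over all genes, 27.6% and 22.4%. Neuropeptides and pan-neuronal markers lie far to the right, and sperm and yolk genes far to the left.

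Peptide signalling stood out on the high side of tax-6 null. C. elegans encodes its peptide signals in flp genes (FMRFamide-like), nlp genes (other neuropeptides) and ins genes (insulin-like). Prohormone convertase, carboxypeptidase and amidating enzymes then cut and finish them in dense-core vesicles. Of 65 tested neuropeptide genes, 60 were higher and 1 was lower, which is 92.3% higher beside 27.6% of all genes. The median difference was 1.60, and 52 genes differed by at least 2-fold. All 23 flp genes tested were higher, by 0.59 to 2.27 with a median of 1.77. Of 39 nlp genes, 34 were higher, with a median of 1.57. nlp-36 was the one lower member, at -0.42 ± 0.14 (adjusted p = 0.0217), and that call was lost without aak-2 o/e replicate 3 (adjusted p = 0.0923), without tax-6 null replicate 2 or 3, and with only the 6 arrays. nlp-51, nlp-57, nlp-69 and nlp-91 did not pass, at 0.11, 0.21, -0.11 and 0.21. The list does not hold every nlp gene. It leaves out nlp-25, which was lower at -1.74 ± 0.34. That gene is counted with the epidermal antimicrobial peptides below, of which 9 were higher and 1 lower of 18. nlp-15 read 6.85, 6.32 and 6.53 in tax-6 null, against 3.97, 4.45 and 4.13 in aak-2 o/e, with means of 5.09 in crh-1 null and 5.18 in WT. nlp-35 read 8.44, 8.03 and 7.98 in tax-6 null, against 5.71, 5.97 and 6.04 in aak-2 o/e, and nlp-81 and nlp-18 were higher by 2.19 ± 0.12 and 1.70 ± 0.10. In each of these 4 genes the lowest tax-6 null array lay more than 1 log2 unit above the highest aak-2 o/e array.

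The mean over all 65 genes was 9.04, 8.29 and 8.37 on the tax-6 null arrays, against 7.07, 7.07 and 7.14 on the aak-2 o/e arrays, and 7.38, 7.42 and 7.37 in WT. So tax-6 null lay above WT and aak-2 o/e below it, with replicate 1 the highest tax-6 null array. Against WT, 56 of the genes were called higher in tax-6 null (18.7% over all genes), and 11 lower in aak-2 o/e (19.3%), in contrasts that share the WT arrays. Without tax-6 null replicate 1 the count of higher neuropeptides was again 60, and their median difference was 1.36.

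Insulin-like peptides followed the same direction, with 14 of 18 higher (77.8%, beside 27.6% of all genes), 0 lower and a median of 1.43. ins-35 read 10.95, 11.04 and 10.99 in tax-6 null, against 6.88, 7.33 and 7.61 in aak-2 o/e (difference 3.72 ± 0.18, adjusted p = 1.2e-08). ins-24 was higher by 3.06 ± 0.32, ins-5 by 2.73 ± 0.22 and ins-4 by 2.14 ± 0.16. ins-35 and ins-5 lay on both sides of WT, with differences from WT of 2.73 in tax-6 null, against -0.99 in aak-2 o/e for ins-35. ins-3, ins-22, ins-37 and ins-39 did not pass. ins-22 read 5.96, 4.64 and 4.69 in tax-6 null, against 5.40, 5.84 and 5.75 in aak-2 o/e, and without tax-6 null replicate 1 it and ins-37 were called lower (adjusted p = 9.8e-05 and 0.0254). ins-37 was also called lower without aak-2 o/e replicate 3 or WT replicate 2.

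The enzymes that make the peptides moved with them in part. Of 13 peptide-processing and dense-core vesicle genes, 6 were higher and 1 lower, 46.2% higher beside 27.6% of all genes. sbt-1, the chaperone of the convertase EGL-3, read 12.10, 11.48 and 11.41 in tax-6 null, against 10.10, 10.02 and 10.06 in aak-2 o/e (difference 1.60 ± 0.16). egl-3 itself was higher by 1.57 ± 0.16, egl-21, the carboxypeptidase, by 1.35 ± 0.13, the vesicle gene cab-1 by 1.27 ± 0.13 and pghm-1, an amidating enzyme, by 1.38 ± 0.16. tbc-8 was the sixth, at 0.38 ± 0.13, and lost its call under 8 alternatives. aex-5, a convertase that acts outside neurons, was the lower one, reading 5.44, 6.59 and 6.04 in tax-6 null, against 7.63, 7.45 and 7.09 in aak-2 o/e.

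General neuronal genes were higher too, with smaller differences. Of 13 pan-neuronal markers, 11 were higher and 0 lower, with a median of 0.67. That is 84.6% higher, beside 27.6% of all genes. Without tax-6 null replicate 1, 9 were higher and the median was 0.46. The mean of the 13 markers was 8.21, 8.10 and 8.06 in tax-6 null, against 7.40, 7.43 and 7.43 in aak-2 o/e. The crh-1 null arrays, at 8.05, 8.15 and 8.14, overlapped tax-6 null, and WT lay between at 7.72, 7.74 and 7.72. In whole animals a larger share of cells of a type and more RNA per cell cannot be told apart, here and for every tissue below, and the part of neuronal content in the peptide result was not tested. ric-19 and ehs-1 did not pass, at 0.19 and 0.25. Of 24 synaptic machinery genes, 11 were higher and 0 lower, with a median of 0.22. That is 45.8% called, beside 50.1% of all genes. This list overlaps with the pan-neuronal one, so the 2 counts are not independent. The SNAP-25 gene ric-4 read 9.85, 9.63 and 9.44 in tax-6 null, against 8.57, 8.61 and 8.59 in aak-2 o/e, and the kinesin gene unc-104, which carries synaptic vesicles, read 7.17, 7.14 and 7.28 in tax-6 null, against 5.92, 6.47 and 6.09 in aak-2 o/e. The release factors cpx-1 (complexin) and unc-13 were higher by 0.64 ± 0.13 and 0.67 ± 0.16. Both counts of 11 were 7 with only the 6 arrays in the fit and without aak-2 o/e replicate 1, and 2 synaptic genes were lower without aak-2 o/e replicate 2.

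Transmitter and sensory genes did not share 1 direction. Among 8 neurotransmitter genes, the GABA transporter snf-11 was higher by 1.47 ± 0.17 and the dopamine transporter dat-1 by 0.67 ± 0.19, while bas-1, the decarboxylase of dopamine and serotonin synthesis, was lower at -0.97 ± 0.14. With tax-6 null replicate 3 or, separately, aak-2 o/e replicate 1 left out, 4 transmitter genes were higher. Only 14 of 71 genes listed as sensory neuron genes on the array passed the filter. The list is not purely neuronal, since che-14 also counts among the epidermal markers below and osm-11 encodes a secreted protein. Its split therefore does not describe sensory neurons alone. Of these, 5 were higher (odr-10, gcy-11, osm-11, odr-2 and mec-7) and 4 lower (gcy-12, che-14, osm-7 and osm-8). The diacetyl receptor odr-10 read 5.76, 4.46 and 4.75 in tax-6 null, against 3.55, 3.23 and 3.23 in aak-2 o/e, at least 1.98-fold higher. Of 2 receptor guanylyl cyclases, gcy-11 was higher by 1.17 ± 0.15 and gcy-12 lower at -2.82 ± 0.36. The odr-2 call was lost under 16 alternatives. osm-11, a secreted Notch co-ligand, was higher by 0.94 ± 0.12.

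Genes of insulin and TGF-beta signalling leaned high, and known targets of DAF-16 leaned the same way, with 2 lower members. Of 14 genes from the insulin receptor to DAF-16, 8 were higher and 0 lower (5 higher with only the 6 arrays). pqm-1, a zinc-finger factor that works opposite DAF-16, read 9.94, 10.81 and 10.75 in tax-6 null, against 8.73, 8.83 and 8.60 in aak-2 o/e. ist-1, akt-2 and aap-1, an insulin receptor substrate, a kinase and a lipid kinase adaptor, were higher by 0.78 ± 0.10, 0.73 ± 0.16 and 0.61 ± 0.14. In the dauer TGF-beta and steroid hormone group, 11 of 17 were higher and 0 lower, with a median of 0.89. That count includes 5 sma genes, which are named for small body size rather than dauer. Of the sma genes 4 were higher, and their median was 1.31. Of 9 daf genes 6 were higher, and their median was 0.87. The SMAD gene sma-3 read 7.80, 8.70 and 8.58 in tax-6 null, against 6.44, 6.71 and 6.66 in aak-2 o/e, and its cofactor sma-9, its type I receptor sma-6 and the SMAD gene daf-14 were higher by 1.36 ± 0.16, 1.20 ± 0.14 and 1.25 ± 0.12. Known targets of DAF-16 were 8 higher and 2 lower of 17, with a median of 0.49. That is 47.1% higher and 11.8% lower, beside 27.6% and 22.4% of all genes. sod-3, the mitochondrial superoxide dismutase often used as a DAF-16 reporter, read 6.33, 6.46 and 6.06 in tax-6 null, against 3.46, 4.07 and 3.92 in aak-2 o/e, with means of 4.37 in crh-1 null and 4.38 in WT. nnt-1, the small heat shock gene sip-1 and the lysozyme lys-7 were higher by 2.70 ± 0.28, 1.73 ± 0.19 and 1.16 ± 0.10. The 2 lower ones were ctl-2, a catalase, and hsp-16.2, at -1.26 ± 0.47, a call lost without aak-2 o/e replicate 1 (adjusted p = 0.114), 1 of 12 alternatives that lost it. Leaving out single arrays gave between 0 and 2 lower DAF-16 targets, with 0 without tax-6 null replicate 1 or 3.

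**Figure D4:**
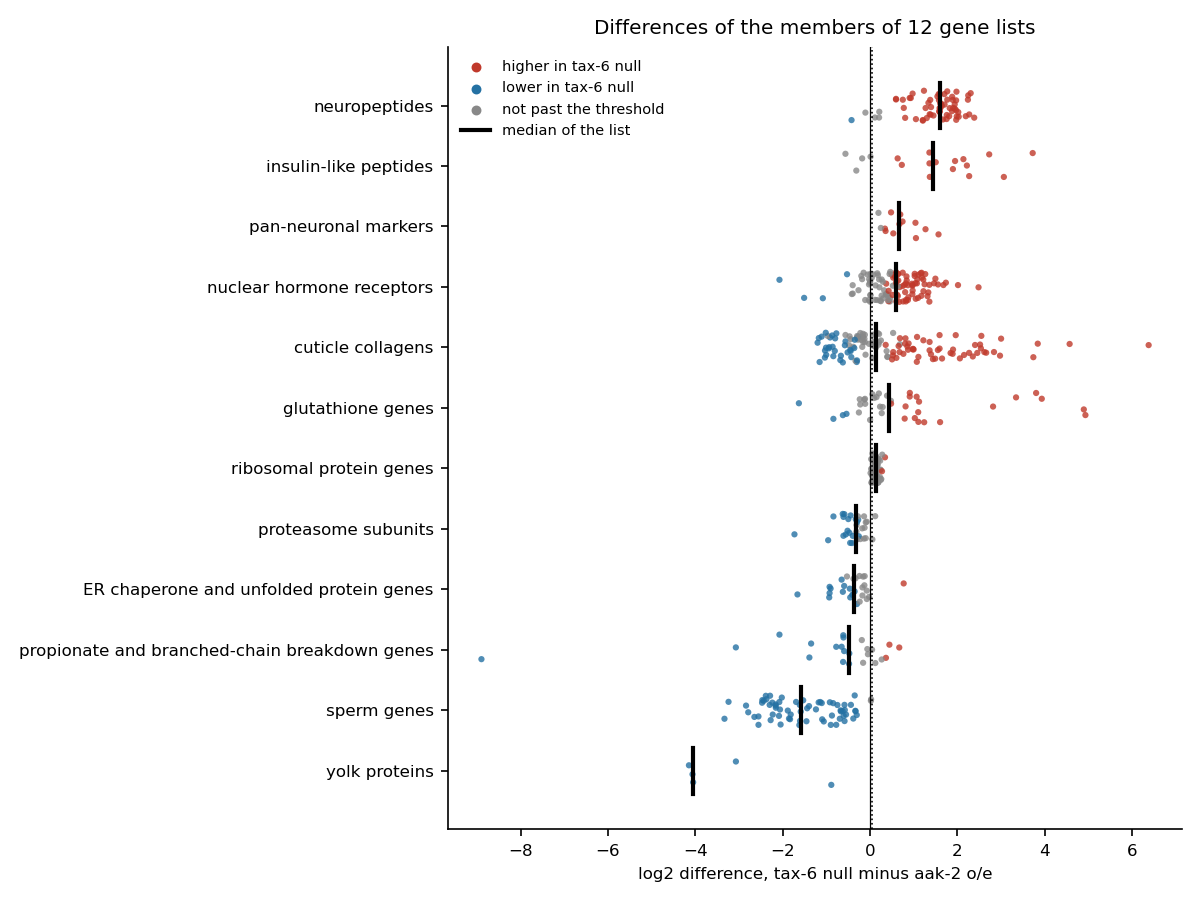
Log2 differences, tax-6 null minus aak-2 o/e, of the tested members of 12 gene lists, with a black bar at each list's median and a dotted line at the all-gene median of 0.05. Nearly all neuropeptides lie to the right of the dotted line and all 67 sperm genes to its left.

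Sperm genes were lower in tax-6 null almost without exception. L4 hermaphrodites are at the age when the germ line makes its stock of sperm, before it switches to oocytes. Of 67 tested sperm genes, 0 were higher and 65 lower, 97% beside 22.4% of all genes, with a median of -1.59. At least 2-fold differences numbered 44. The mean over these genes was 9.67, 9.52 and 9.70 in tax-6 null, against 11.09, 11.16 and 11.16 in aak-2 o/e. With WT at 9.87, 10.08 and 9.91, tax-6 null lay close to WT and aak-2 o/e above it. Against WT, 61 of the genes were called higher in aak-2 o/e (14.2% over all genes), and 26 lower in tax-6 null (26.3%).

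ssp-16, of the sperm-specific family, read 9.92, 9.89 and 10.13 in tax-6 null, against 13.21, 13.23 and 13.51 in aak-2 o/e (difference -3.33 ± 0.12, adjusted p = 1.82e-09). spe-4, a presenilin-type gene of sperm organelles, read 7.22, 7.47 and 7.43 in tax-6 null, against 9.35, 9.54 and 9.70 in aak-2 o/e, and spe-55 was lower at -2.56 ± 0.15. snf-10, a transporter used in sperm activation, was at least 4.37-fold lower and below 4 on every tax-6 null array. The 23 major sperm protein genes, which have near-identical copies and share probes, had the smaller differences, with a median of -0.67 beside -2.16 in 23 spe genes. nspd-9 and spe-48 did not pass, both at 0.02.

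Yolk genes had the lowest median of the lists. Yolk proteins are made in the adult intestine and taken up by oocytes, and vit genes switch on around the last moult. All 5 tested vit genes were lower, with a median of -4.05. vit-6 read 9.72, 10.04 and 10.55 in tax-6 null, against 13.35, 13.03 and 13.15 in aak-2 o/e (adjusted p = 8.68e-08), with means of 9.46 in crh-1 null and 10.27 in WT. vit-1 was lower at -4.06 ± 0.24, vit-4 at -4.05 ± 0.50 and vit-5 at -4.15 ± 0.53. In vit-4 and vit-5 replicate 3 of tax-6 null was well above the other 2, as vit-5 read 5.41, 5.33 and 7.70 in tax-6 null, against 10.53, 9.83 and 10.52 in aak-2 o/e. Their probe sets are of the _x type, which can bind several vit transcripts. vit-2 behaved apart from them and read 9.35, 9.70 and 10.42 in tax-6 null, against 11.10, 10.53 and 10.50 in aak-2 o/e (difference -0.89 ± 0.24, adjusted p = 0.00929). It was the one yolk gene high in both strains, with means of 6.75 in crh-1 null and 7.04 in WT, and its call was lost with only the 6 arrays (adjusted p = 0.0563) and with array weights (adjusted p = 0.0976). Over the 5 genes the mean was 7.53, 7.72 and 9.01 in tax-6 null, against 11.61, 11.02 and 11.36 in aak-2 o/e.

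Other germline groups did not follow sperm and yolk. Eggshell and oocyte-surface genes gave 4 higher and 2 lower of 14, 28.6% higher beside 27.6% of all genes. The eggshell proteoglycan genes cpg-3 and cpg-2 were higher by 1.62 ± 0.26 and 0.94 ± 0.17, together with gna-2, which supplies eggshell sugars, at 0.91 ± 0.13 and egg-2 at 0.48 ± 0.15. rme-2, the oocyte receptor for yolk, was lower at -0.60 ± 0.19, and egg-6 at -0.39 ± 0.12. The egg-2 call was lost under 4 alternatives, among them without aak-2 o/e replicate 2 (adjusted p = 0.0545). The rme-2 call was lost under 6 alternatives, among them without tax-6 null replicate 3 (adjusted p = 0.0763), and its arrays overlapped. Without tax-6 null replicate 2, or without aak-2 o/e replicate 1, 0 of the eggshell and oocyte-surface genes were lower. Of 27 oocyte RNA regulators, 2 were higher and 4 lower, 22.2% called beside 50.1% of all genes. Germ-granule genes made up the lower ones, with glh-1 at -1.05 ± 0.18, glh-4 at -1.10 ± 0.19 and pgl-1 at -0.64 ± 0.18, joined by zif-1 at -0.54 ± 0.19. The higher ones were lin-41, a repressor of early maturation, at 0.53 ± 0.17 and pos-1 at 0.39 ± 0.15. For lin-41, zif-1 and pos-1 the call depended on the arrays used and was lost in at least 6 repeats each. Leaving out single arrays gave between 0 and 5 higher oocyte RNA regulators, the 5 without aak-2 o/e replicate 1.

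Genes of meiosis and DNA replication had called shares below the background. Of 29 meiotic chromosome genes, 2 were higher (him-5 and dsb-1) and 4 lower (lab-1, htp-3, plk-2 and msh-5), and without tax-6 null replicate 1 the higher count was 5. The msh-5 call was lost under 14 alternatives, with an adjusted p of 0.111 with only the 6 arrays. lab-1, a protector of chromosome cohesion, was the largest at -1.40 ± 0.21, while the axis gene htp-3 and the polo kinase plk-2 stood at -0.60 ± 0.14 and -0.59 ± 0.11, and dsb-1, of double-strand break formation, at 0.54 ± 0.13. Of 33 replication genes, 3 were higher (psf-3, sld-2 and dut-1) and 2 lower (rnr-1 and div-1), between -0.64 and 0.71. The call of div-1 was lost without tax-6 null replicate 1 (adjusted p = 0.0815) and under 4 other alternatives, and without aak-2 o/e replicate 2 the higher replication genes numbered 1. dut-1 lost its call under 8 alternatives and psf-3 under 2, and centring arrays on their medians gave 5 lower replication genes. In all, 20.7% of the meiotic and 15.2% of the replication genes were called, beside 50.1% of all genes.

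Mitotic genes were called about as often as all genes, 53.3% beside 50.1%. They were 6 higher and 10 lower of 30 (3 higher with only the 6 arrays). cki-1, an inhibitor that holds cells in G1, read 9.40, 9.54 and 9.31 in tax-6 null, against 8.18, 8.03 and 7.86 in aak-2 o/e, while the spindle kinase air-1 and the cytokinesis gene cyk-4 were lower at -0.79 ± 0.12 and -0.93 ± 0.15. Of 30 histone genes, 15 were lower and 5 higher, or 50% and 16.7%, beside 22.4% and 27.6% of all genes. his-70, an H3 variant, read 9.29, 8.50 and 8.83 in tax-6 null, against 11.14, 11.60 and 11.51 in aak-2 o/e. The replication-dependent copies his-4, his-39 and his-62 were lower at -1.54 ± 0.15, -1.41 ± 0.19 and -0.99 ± 0.13, on probe sets that related copies share. The 5 higher histone genes were hil-2, hil-7, his-35, his-37 and his-71, and their count was 3 without tax-6 null replicate 2 or 3, also 3 without aak-2 o/e replicate 2, and 2 without aak-2 o/e replicate 3.

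**Figure D5:**
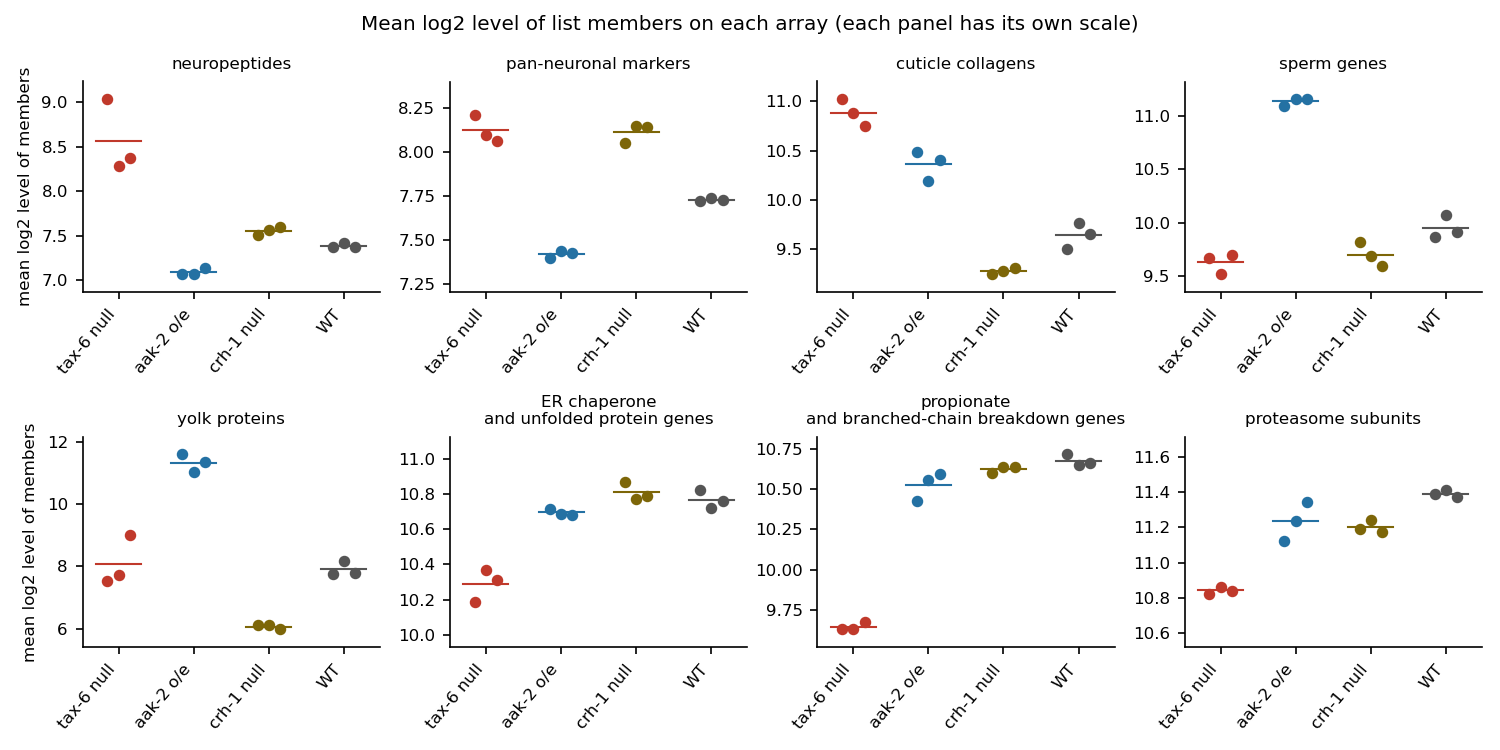
Mean log2 value over the tested members of 8 gene lists on each array of tax-6 null, aak-2 o/e, crh-1 null and WT, each panel on its own scale. Neuropeptides are highest in tax-6 null, sperm and yolk genes are highest in aak-2 o/e, and proteasome genes are lowest in tax-6 null.

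Cuticle genes changed in both directions, with the larger changes on the high side. The cuticle is rebuilt at every moult from collagens that differ by stage. Of 125 tested collagens, 52 (41.6%) were higher and 32 (25.6%) lower. At least 2-fold differences numbered 35 on the high side and 9 on the low side, and the median of the list was 0.14. After col-158, col-143 was at least 20.4-fold higher, col-101 was higher by 3.74 ± 0.17 and col-8 by 2.54 ± 0.16. All of these were also above WT in tax-6 null, and of the 4 none was called against WT in aak-2 o/e.

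col-19, the collagen that marks the adult cuticle, read 12.31, 11.98 and 12.30 in tax-6 null, against 10.31, 9.22 and 10.27 in aak-2 o/e (difference 2.27 ± 0.33, adjusted p = 0.000115). Its means were 4.23 in crh-1 null and 4.57 in WT, so both long-lived strains carried far more of it than crh-1 null and WT. The adult strut collagens bli-1 and bli-2 were lower, at -1.03 ± 0.21 and -0.77 ± 0.15, and their WT means of 14.09 and 13.99 were above both strains. How far the strains differed in developmental time at harvest, and its part in the cuticle, sperm and yolk results, was not tested.

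Heterochronic genes, which time the larval stages, were 5 higher and 0 lower of 14. That is 35.7% called, beside 50.1% of all genes. daf-12, a nuclear receptor, was higher by 1.11 ± 0.17, lin-46 by 0.99 ± 0.19, hbl-1 by 0.80 ± 0.16 and the early-stage factor lin-28 by 0.47 ± 0.14, with lin-41 as the fifth. The count was 3 with only the 6 arrays and with the stricter filter at a level of 6, and 1 gene was lower without tax-6 null replicate 3, or without aak-2 o/e replicate 3. Hedgehog-related genes were 10 higher and 12 lower of 33, with a median of -0.24. That is 30.3% higher and 36.4% lower, beside 27.6% and 22.4% of all genes. Besides the ground-like genes above, grd-10 and grd-3 were higher by 2.82 ± 0.18 and 2.44 ± 0.14. Their proposed receptors leaned low, with 10 of 19 patched and patched-related genes lower and 3 higher. ptc-3 was lower at -0.91 ± 0.13, ptr-11 at -1.54 ± 0.17, and ptr-24 read 8.13, 8.17 and 8.14 in tax-6 null, against a mean of 9.15 in aak-2 o/e. Against that, ptr-8 read 7.16, 6.97 and 7.57 in tax-6 null, against 4.04, 4.14 and 3.54 in aak-2 o/e, and ptr-10 and ptr-23 were higher by 1.24 ± 0.24 and 1.11 ± 0.23.

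Moulting and apical matrix genes were split, 7 higher and 6 lower of 28, 25% and 21.4%, near the 27.6% and 22.4% of all genes. The peroxidase mlt-7, the fibrillin-like fbn-1 and pan-1 were higher by 1.31 ± 0.14, 1.25 ± 0.18 and 1.03 ± 0.15, and mlt-10 was lower at -1.41 ± 0.18. Astacin metalloproteases, some of which trim collagens, were 8 higher and 4 lower of 19, or 42.1% and 21.1%. nas-20 and nas-9 were higher by 2.51 ± 0.23 and 2.47 ± 0.15, toh-1 by 1.76 ± 0.20 and dpy-31, a procollagen protease, by 1.05 ± 0.14. The lower ones, nas-12, nas-15, nas-24 and nas-36, dropped to 1 with the stricter filter. Epidermal markers beside these lists moved little as a group, with 4 higher and 2 lower of 16, 37.5% called beside 50.1% of all genes. Their means were 9.13, 9.26 and 9.27 in tax-6 null, against 9.19, 9.13 and 8.97 in aak-2 o/e. Of 2 epidermal GATA factors, elt-3 was higher by 1.60 ± 0.21 and elt-1 lower at -1.30 ± 0.11, and dpy-7 and egl-27 were higher by 0.60 ± 0.15 and 0.66 ± 0.13, with vab-10 as the fourth higher and che-14 as the other lower one. The part of epidermal content in the collagen result was not tested.

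In metabolism the widest change was in the breakdown of propionate and branched-chain amino acids. When vitamin B12 is short, worms burn propionate through a shunt of acdh-1, ech-6, hach-1 and hphd-1, which the nuclear receptors nhr-10 and nhr-68 switch on. Of 23 tested genes, 13 were lower and 3 higher, 56.5% lower beside 22.4% of all genes. The 4 shunt enzymes were all lower in tax-6 null, with acdh-1 far ahead. hphd-1 read 9.07, 9.06 and 9.20 in tax-6 null, against 12.19, 12.01 and 12.34 in aak-2 o/e (difference -3.07 ± 0.11, adjusted p = 1.72e-09). hach-1 was lower at -1.39 ± 0.10 and ech-6 at -1.35 ± 0.11. nhr-68 read 7.23, 7.25 and 7.35 in tax-6 null, against 8.93, 9.69 and 9.43 in aak-2 o/e, a difference of -2.07 ± 0.17, while nhr-10 was higher by 0.67 ± 0.17. The other higher members belonged to the B12-dependent route, pccb-1 of propionyl-CoA carboxylase at 0.36 ± 0.10 and the epimerase mce-1 at 0.44 ± 0.15. Both of those calls were lost with only the 6 arrays, leaving 1 higher gene. Differences from WT were -8.60 in tax-6 null, against 0.29 in aak-2 o/e for acdh-1, and -2.85 in tax-6 null, against 0.22 in aak-2 o/e for hphd-1, so tax-6 null was the strain that stood apart.

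Methionine and S-adenosylmethionine genes, the other B12-linked branch, were 10 lower and 3 higher of 20, 50% lower beside 22.4% of all genes. Beside cbs-2, mtrr-1, the reductase that keeps methionine synthase active, was lower at -1.01 ± 0.12. cbs-1, the other cystathionine beta-synthase, went the opposite way from cbs-2 and read 9.04, 8.44 and 8.54 in tax-6 null, against 7.17, 7.44 and 7.41 in aak-2 o/e. pmt-1, a methyltransferase of phosphocholine synthesis, and sams-5, a synthetase of S-adenosylmethionine, were higher by 0.99 ± 0.11 and 0.74 ± 0.15.

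Fatty acid synthesis and breakdown parted. Of 39 genes for synthesis, desaturation and elongation, 18 were higher and 5 lower (3 lower with only the 6 arrays, and without tax-6 null replicate 3, or without aak-2 o/e replicate 2 or 3), while of 56 acyl-CoA and beta-oxidation genes 7 were higher and 28 lower. The delta-9 desaturase fat-7 read 9.80, 9.38 and 9.12 in tax-6 null, against 7.18, 7.36 and 7.81 in aak-2 o/e, with means of 5.40 in crh-1 null and 6.78 in WT. fat-3, the delta-6 desaturase, and the acyltransferase acl-12 were higher by 1.57 ± 0.15 and 2.14 ± 0.13, and the elongase elo-7 was lower at -2.82 ± 0.13. The other lower ones were elo-4, acl-13, art-1 and nhr-13. acs-6 and acs-10, acyl-CoA synthetase genes, were lower at -3.02 ± 0.18 and -2.73 ± 0.15, in both cases with WT between the strains. Among the 7 higher members was ech-9, an enoyl-CoA hydratase family gene, at 4.23 ± 0.33, the largest difference among those 7. acs-2, the synthetase that NHR-49 induces in fasting, did not pass between the strains (0.27 ± 0.53, adjusted p = 0.705), although its differences from WT were -3.26 in tax-6 null, against -3.53 in aak-2 o/e. nhr-49 itself was at the border (0.43 ± 0.16, adjusted p = 0.0482), overlapped between the strains and lost its call under 14 alternatives.

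Lipases and lipid-binding proteins were 13 higher and 7 lower of 34 (4 lower with only the 6 arrays). That is 38.2% higher and 20.6% lower, beside 27.6% and 22.4% of all genes. The fatty acid-binding gene far-7 and the lipase-like lips-15 were higher by 2.00 ± 0.13 and 1.57 ± 0.13, against lips-14 and its fall to the floor. In glycolysis, gluconeogenesis and trehalose metabolism, 7 were higher and 7 lower of 32. That is 21.9% each way, below the 27.6% and 22.4% of all genes. The trehalose synthase gene tps-1 was higher by 1.62 ± 0.23 and the trehalase gene tre-5 at least 2.38-fold. The phosphofructokinase pfk-1.2 and the PEP carboxykinase gene pck-3 were lower at -2.66 ± 0.31 and -2.82 ± 0.19, while pck-1 was higher by 0.84 ± 0.13.

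Few genes of the tricarboxylic acid cycle and respiratory chain were called. Of 91 tested genes, 3 were higher, 11 lower and 77 did not pass, 15.4% called beside 50.1% of all genes. cyc-2.2, a cytochrome c gene, was lower at -1.87 ± 0.19, mdh-2, the mitochondrial malate dehydrogenase, at -0.51 ± 0.10 and ucr-2.2, a complex III core gene, at -0.42 ± 0.09. The higher ones were the complex I assembly genes nuaf-1 at 0.72 ± 0.12 and nuaf-7 at 0.38 ± 0.15, with idhg-2 at 0.34 ± 0.12, and the last 2 lost their calls under 15 and 12 alternatives. The lower count was 7 with only the 6 arrays, and the higher count was 1 without aak-2 o/e replicate 1 and without any 1 of 5 crh-1 null and WT arrays.

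Nuclear hormone receptors, a large family of hormone- and lipid-sensing transcription factors in worms, leaned strongly high. Of 259 on the array, those that passed the filter were 65 higher (57%), 4 lower and 45 not past the threshold, with a median of 0.60. nhr-61 read 6.95, 6.86 and 6.51 in tax-6 null, against 4.81, 5.19 and 5.12 in aak-2 o/e, nhr-6 was higher by 1.31 ± 0.15 and nhr-64 by 1.26 ± 0.13. These levels are low to middling for the array, and with the stricter filter at 6, which tests fewer receptors, 42 were higher. The lower ones were nhr-68, nhr-114 at -1.51 ± 0.37, nhr-13 at -1.08 ± 0.26 and sex-1 at -0.53 ± 0.17. The sex-1 call was lost under 7 alternatives, among them without tax-6 null replicate 2 (adjusted p = 0.058).

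Detoxification genes leaned high. Of 38 glutathione genes, 18 were higher and 4 lower, with a median of 0.43. That is 47.4% higher and 10.5% lower, beside 27.6% and 22.4% of all genes. Without tax-6 null replicate 1 they were 17 higher and 6 lower, with a median of 0.23. gst-24, a glutathione S-transferase, read 10.91, 11.32 and 11.04 in tax-6 null, against 6.11, 6.21 and 6.16 in aak-2 o/e (difference 4.93 ± 0.14, adjusted p = 3.46e-10), with means of 8.13 in crh-1 null and 6.09 in WT. gst-38 was higher by 3.80 ± 0.16, and gst-30 and gst-15 rose from the floor, by at least 8.03-fold and 4.36-fold. The glutathione peroxidase gpx-3 read 8.11, 8.63 and 8.38 in tax-6 null, against 4.82, 5.42 and 4.86 in aak-2 o/e, with a crh-1 null mean of 8.19 next to tax-6 null. gst-10, gst-26, gst-39 and gstk-1 were lower, led by gst-10 at -1.63 ± 0.16, and gst-26 and gst-39 lost their calls without tax-6 null replicate 2 (adjusted p = 0.0765 and 0.0974). The lower count was 2 then, and also without tax-6 null replicate 3, or without aak-2 o/e replicate 3. UDP-glucuronosyltransferases were 24 higher and 10 lower of 47, or 51.1% and 21.3%. ugt-18 was at least 17.9-fold higher, ugt-39 was higher by 2.97 ± 0.14 and ugt-11 at least 3.89-fold. For ugt-11 the crh-1 null mean of 6.02 was close to tax-6 null, against 2.88 in WT. Cytochrome P450 genes were closer to the shares of all genes but still above them on the high side, 13 higher (39.4%) and 7 lower (21.2%) of 33. cyp-14A5, cyp-34A8 and cyp-32B1 were higher by 2.22 ± 0.16, 1.71 ± 0.21 and 1.25 ± 0.15, and cyp-35A5 lay below 4 on all tax-6 null arrays, at least 1.88-fold lower.

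Of 17 superoxide, peroxide and thioredoxin genes, 8 were higher and ctl-2 was lower, 47.1% higher beside 27.6% of all genes. The lower count was 0 without tax-6 null replicate 1 or 3, or without aak-2 o/e replicate 3, and 2 without tax-6 null replicate 2 or crh-1 null replicate 3. The metallothionein mtl-1 read 6.56, 7.34 and 5.98 in tax-6 null, against 4.62, 4.46 and 4.43 in aak-2 o/e. wdr-23, the repressor of the detoxification factor SKN-1, and the mitochondrial thioredoxin trx-2 were higher by 1.34 ± 0.26 and 0.81 ± 0.15. Infection response genes were 12 higher and 3 lower of 22, or 54.5% and 13.6%. irg-1, which bacterial infection and blocked translation induce, read 8.92, 9.22 and 9.07 in tax-6 null, against 4.40, 4.32 and 3.77 in aak-2 o/e, with means of 7.19 in crh-1 null and 4.37 in WT. irg-2, irg-3 and irg-4 were higher by 3.73 ± 0.43, 2.15 ± 0.14 and 1.68 ± 0.15. sysm-1 at -1.94 ± 0.23, irg-5 at -0.64 ± 0.22 and irg-8 at -0.51 ± 0.12 were the lower ones, so the family did not move as a block, and irg-5 lost its call without tax-6 null replicate 2 (adjusted p = 0.115).

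Other defence families were mixed, to be read beside 27.6% higher and 22.4% lower over all genes. Of 18 epidermal antimicrobial peptide genes, 9 were higher, led by fipr-24 at 4.08 ± 0.25, fipr-2 at 2.60 ± 0.18, nlp-27 at 1.97 ± 0.18 and cnc-8 at 1.64 ± 0.16, and nlp-25 was lower at -1.74 ± 0.34. Several share probes with close copies. Lysozymes and saposin-like genes were 9 higher and 5 lower (ilys-5, spp-1, spp-4, spp-7 and spp-13) of 22, or 40.9% and 22.7%. The invertebrate-type lysozyme ilys-5 was lower at -2.77 ± 0.10, spp-4 was lower at -1.52 ± 0.14 and spp-24 higher by 1.81 ± 0.17. C-type lectins were 26 higher and 22 lower of 68, or 38.2% and 32.4% (15 higher with the stricter filter). clec-76 was at least 3.3-fold higher and clec-52 higher by 3.16 ± 0.15, while clec-73 and clec-10 were lower at -3.26 ± 0.14 and -2.63 ± 0.10. F-box and BTB-MATH genes leaned high, 60 higher and 14 lower of 113 tested among 413 on the array, or 53.1% and 12.4%. After fbxa-163, fbxa-88 was at least 5.77-fold higher and fbxa-82 higher by 2.25 ± 0.09. With the stricter filter the F-box counts were 36 higher and 4 lower.

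Protein folding genes of the secretory route leaned low. The unfolded protein response of the endoplasmic reticulum (ER) runs through IRE-1 and XBP-1, PEK-1 and ATF-6, and raises chaperones such as the BiP genes hsp-3 and hsp-4. Of 28 ER genes, 14 were lower and 1 higher, 50% lower beside 22.4% of all genes, with a median of -0.37. hsp-4 read 10.33, 10.84 and 10.79 in tax-6 null, against 12.64, 12.12 and 12.18 in aak-2 o/e (difference -1.66 ± 0.17, adjusted p = 6.53e-06), with means of 11.88 in crh-1 null and 11.38 in WT. hsp-3 was lower at -0.90 ± 0.13, the disulfide isomerase pdi-2 at -0.93 ± 0.10 and cdc-48.2, a segregase of ER-associated degradation, at -0.94 ± 0.10. In WT and crh-1 null hsp-3 averaged close to aak-2 o/e, and hsp-4 lay between the strains. xbp-1 did not pass (-0.33 ± 0.21, adjusted p = 0.221), and atf-6 was the higher one at 0.77 ± 0.18. Heat shock genes outside the ER were 4 higher and 7 lower of 22, or 18.2% and 31.8%, beside 27.6% and 22.4% of all genes. The small heat shock genes sip-1, hsp-43, hsp-17 and hsp-25 were the higher ones, with sip-1 at 13.61, 13.74 and 13.72 in tax-6 null, against 12.41, 11.60 and 11.87 in aak-2 o/e and hsp-43 and hsp-17 higher by 1.44 ± 0.14 and 0.97 ± 0.17. The hsp-25 call was lost under 14 alternatives. The mitochondrial chaperonin hsp-60 was lower at -0.86 ± 0.11. The stress-inducible hsp-70 read 6.01, 7.02 and 7.23 in tax-6 null, against 11.08, 8.49 and 8.72 in aak-2 o/e, and replicate 1 of aak-2 o/e was the outlying array there as it was for hsp-16.2.

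Genes of the abu and pqn families, whose products are rich in glutamine and asparagine, were 16 higher and 8 lower of 46 (5 lower with only the 6 arrays). That is 52.2% called, near the 50.1% of all genes, with 34.8% higher and 17.4% lower beside 27.6% and 22.4%. pqn-31 and pqn-94 were higher by 3.10 ± 0.20 and 2.60 ± 0.23, and both were as high in crh-1 null, with a pqn-31 mean of 9.66 there. pqn-48 was higher by 1.48 ± 0.14, and abu-12 was lower at -1.55 ± 0.15.

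Proteasome genes were lower and ribosomal genes nearly flat. Of 33 proteasome subunits, 0 were higher and 19 lower, 57.6% lower beside 22.4% of all genes, with a median of -0.31. Lid and base subunits of the regulatory cap held most calls, 10 of 13 rpn and 5 of 6 rpt genes, against 2 of 7 pas and 2 of 7 pbs genes of the core. This division was made after the values were seen and was not tested. rpn-6.2, a second copy of the lid gene rpn-6, read 8.29, 8.42 and 8.43 in tax-6 null, against 9.92, 10.11 and 10.30 in aak-2 o/e. rpn-1, pbs-1 and rpt-5 were lower at -0.96 ± 0.17, -0.63 ± 0.13 and -0.61 ± 0.10. The mean of the list was 10.82, 10.86 and 10.84 in tax-6 null, against 11.12, 11.23 and 11.35 in aak-2 o/e and 11.39, 11.41 and 11.37 in WT.

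Of 73 ribosomal protein genes, 2 were higher, rpl-11.2 at 0.34 ± 0.10 and rps-28 at 0.27 ± 0.09, and 0 lower, with differences from 0.01 to 0.34. The count depended on the fit, with 31 higher under the trend and robust options, 26 with no filter and 0 with only the 6 arrays, and arrays centred on their medians gave 1. Vacuolar ATPase genes gave 2 lower of 19, 10.5% called beside 50.1% of all genes. These were unc-32 and vha-19 at -0.43 ± 0.14 and -0.34 ± 0.11, and both lost their calls without tax-6 null replicate 1 (adjusted p = 0.0649 and 0.0673). The lower count was 1 without tax-6 null replicate 3, or without aak-2 o/e replicate 1 or 3, and 1 gene was higher without tax-6 null replicate 1 or 2. Among aspartyl and cathepsin proteases of the gut, 8 of 20 were lower and 4 higher (asp-12, asp-4, cpr-3 and cpr-4). That is 40% lower and 20% higher, beside 22.4% and 27.6% of all genes. cpr-1, cpr-5 and cpr-9 were lower at -0.85 ± 0.11, -0.84 ± 0.12 and -0.78 ± 0.11, and asp-12 was higher by 1.69 ± 0.27. Transthyretin-like genes, a secreted family, were 21 higher and 4 lower of 35, or 60% and 11.4%. ttr-21 read 10.18, 9.71 and 9.99 in tax-6 null, against 5.54, 6.05 and 5.31 in aak-2 o/e, ttr-23, ttr-27 and ttr-5 were higher by 3.15 ± 0.12, 2.77 ± 0.16 and 1.93 ± 0.11, and ttr-9, ttr-12, ttr-35 and ttr-56 were lower.

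Tissue markers give the scale for these whole-animal differences. Body wall muscle markers were 1 higher and 6 lower of 38, 18.4% called beside 50.1% of all genes, with a median of -0.14. The attachment genes unc-95 and pat-4 and troponin T (mup-2) were lower at -0.72 ± 0.09, -0.47 ± 0.11 and -0.52 ± 0.13, and unc-38, an acetylcholine receptor subunit, was the higher one at 0.44 ± 0.13, joined by another without tax-6 null replicate 1. The lower count was 3 with only the 6 arrays and without aak-2 o/e replicate 1, and 10 with arrays centred on their medians. Of 24 intestinal markers, 7 were higher and 7 lower (4 lower with only the 6 arrays and without aak-2 o/e replicate 2). That is 29.2% each way, beside 27.6% higher and 22.4% lower over all genes. Their means were 10.38, 10.57 and 10.52 in tax-6 null, against 10.45, 10.46 and 10.52 in aak-2 o/e. The esterase ges-1 was lower at -1.04 ± 0.11, the intestinal filament gene ifc-2 and the GATA factor elt-2 were higher by 1.14 ± 0.14 and 0.84 ± 0.18, and pgp-1 was at least 4.26-fold higher. The yolk genes are intestinal too, and vit-6 and vit-2 are themselves members of this list. Their differences, -3.07 and -0.89, are the lowest and the median of its 7 lower ones. The list is therefore not independent of the yolk result, and the part of gut content in the fall of the yolk genes was not tested. Pharyngeal markers leaned high, 13 higher and 3 lower of 22, with phat-8 at 2.41 ± 0.16, marg-1 at 1.70 ± 0.25, phat-3 at 1.23 ± 0.12 and troponin C (tnc-2) at 1.12 ± 0.17. phat-2, phat-4 and pqn-67 were the lower ones. Of 15 vulval and uterine markers, 8 were higher and 0 lower, among them nlp-7 at 1.64 ± 0.26, the growth factor pvf-1 at 1.12 ± 0.16, the cadherin cdh-3 at 1.02 ± 0.17 and the Hox gene lin-39 at 0.94 ± 0.15.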

How the data were processed

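RNA of 12 pools of Caenorhabditis elegans, 3 per strain, was hybridised to Affymetrix arrays, 1 array per pool, so the number of arrays limits the precision. The authors deposited log2 values, for which the submitters' processing notes name GCOS 1.4 and GCRMA. GCRMA corrects background by base content, normalizes between arrays and compresses dim signals, and 29.8% of values lay within 0.1 of the lowest, 2.11. The sources used here do not give its settings. No 2 arrays were identical.

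Of 22625 probe sets, 77 were controls, 20766 had 1 gene symbol, 887 several and 895 none. Of the 1-symbol probe sets, 20701 were found in the WBcel235 gene table, used for names and gene order only. Probe sets at a log2 value of 4 or more on at least 3 arrays were tested, 13396 in all, of which 12717 had 1 gene. Each of the 10365 genes was read from its probe set with the highest mean. Of 2057 genes with more than 1 tested probe set, 7 had calls in opposite directions, none of them named.

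The contrast was fitted by lmFit and eBayes of limma 3.58.1 under R 4.3.3, with 1 mean per strain over the 12 arrays, 8 residual and 3.63 prior degrees of freedom and Benjamini-Hochberg adjustment over all 13396 probe sets, at a threshold of 0.05. The procedure was tested on simulated data. A fold against a strain below 4 on all 3 arrays is a lower bound computed from 4.

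Genes named were the 12 largest differences each way with a gene-class name and the 4 with a sequence name, where the arrays did not overlap. They also include 4 called members per list by smallest adjusted p, the 8 each way on opposite sides of WT and a short list of pathway and marker genes. The strains compared, the gene lists and these rules were chosen with earlier results of these data known. A list of chemoreceptor genes drawn up by symbol also caught other families and is not described further, with 15 higher and 10 lower of 39 tested. Alternatives were quantile normalization, median centring, the 6 arrays alone, other filters, array weights, replicate numbers as a block, probe-set means, trend and robust options, a stricter threshold and leaving out each array. Same-numbered arrays of the 2 strains did not deviate together, with correlations of -0.09, 0.02 and -0.20.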

Additional observations from a re-analysis of the deposited data

How the results depend on the processing

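The 2865 higher and 2323 lower genes, and the 1218 and 1261 among them that differed by at least 2-fold, stayed within 1.5 times these counts under each alternative run. Leaving out 1 array at a time gave 2621 to 2941 higher and 2065 to 2302 lower genes, and 1175 to 1284 higher and 1237 to 1289 lower at 2-fold. The fewest calls outside the stricter threshold came from the 6 arrays alone, with 2287 higher and 1931 lower genes, of which 4200 were called in all 12 arrays too. With the replicate block the counts were 2737 and 2236, and 4924 of these calls were shared with the unblocked fit; the replicate numbers did not pair the arrays. Median centring moved the split most, to 2543 higher and 2585 lower (49.6% of calls higher, against 55.2%), as the median over all genes moved from 0.05 to -0.01. Quantile normalization gave 2922 and 2317. Of 256 genes named by rule and tested, 239 kept their direction and their side of the threshold under all of up to 21 alternatives. Stability was lower among the 91 genes named after their values were seen, since 30 of the 79 called ones lost the call at least once and 3 (ins-22, ins-37 and ehs-1) passed at least once. In neither set did a called value reverse. Together 46 called genes lost the call, most often odr-2 (under 16 alternatives), nuaf-7 (15), hsp-25, msh-5 and nhr-49 (14 each), pos-1 (13), hsp-16.2 and idhg-2 (12), art-1, dut-1, hil-7, mce-1 and tbc-8 (8) and crh-2, sex-1 and strd-1 (7). The other 30 lost it under 1 to 6. aak-1 passed only with array weights (adjusted p = 0.0492) and without tax-6 null replicate 1 (adjusted p = 0.00400), in limma. The cause of these changes was not tested. Signals near the lowest values have compressed differences, so the folds of dim genes are lower bounds.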
